A study of Mus musculus with 8 samples.

Results

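The cells described here are the B cells of the mouse lung, taken as every cell that the authors' annotation of single-cell RNA sequencing names B. They numbered 2334 of 41106 annotated cells, 1435 from 4 mice exposed to cigarette smoke (CS) and 899 from 4 mice kept in room air (RA). The mice carried Sftpc-CreERT2 and the mTmG reporter on a C57BL/6 background, so the Cre acts in alveolar type 2 cells and not in B cells, and both exposures shared these alleles and the tamoxifen that activates the Cre. Tamoxifen was given at 8 to 10 weeks of age, and 2 weeks later littermates went to room air or to CS from 3R4F cigarettes for 6 hours a day on 5 days a week over 10 months. Lungs were digested, red cells were lysed, and CD45-positive and CD45-negative fractions were separated on magnetic beads and recombined at 10% and 90%, so the share of immune cells in a library was set by hand and B cell numbers are read here within the immune cells. Mice are called CS 1 to 4 and RA 1 to 4, each mouse is 1 library, and each of 4 sequencing lanes held 1 CS and 1 RA mouse.

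B cells recognise antigen through a surface immunoglobulin whose signal passes through the chains encoded by Cd79a and Cd79b. They take up the bound antigen and show its peptides on MHC class II to helper T cells, and after activation they may switch from IgM and IgD to IgG, IgA or IgE and become plasma cells. In the lung they circulate through the vessels, lie scattered in the tissue or gather in lymphoid aggregates, which are known from chronically smoke-exposed lungs.

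Markers of B cells are given here as a description of the label. The paper named the mouse clusters by hand from known markers, so high levels are no independent check. Cd79a averaged 23.5 transcripts per 10,000 over B cells, Ms4a1, which encodes CD20, 8.15 and Ighm, the IgM heavy chain, 31.0, and each of these was highest in B cells among 32 cell labels. The next labels were red blood cells for Cd79a and Ms4a1, at 2.38 and 0.820, and plasmacytoid dendritic cells for Ighm, at 8.87. Cd79a was found in 90.4% of B cells and 2.82% of T cells, and Ms4a1 in 81.7% and 0.508%. Ighm was found in 94.0% of B cells but also in 22.5% of T cells, so a transcript of Ighm alone does not mark a B cell. The T cell gene Cd3e was found in 8 B cells.

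Libraries held 31882951 to 55485617 transcripts and the B cells of a mouse 414257 to 3869231, which limits the precision most for RA 1, with 94 B cells. Only 1 barcode occurred among the B cells of more than 1 library, and no pair of mice had the same profile. Xist, which marks female cells, and the Y-linked Ddx3y went against the labelled sex in all 4 CS libraries. CS 1 and CS 2, labelled male, had Xist at 10.5 and 10.6 transcripts per 10,000 and Ddx3y at 0 and 0.0112, while CS 3 and CS 4, labelled female, had Ddx3y at 0.614 and 1.39. The RA libraries matched their labels. Labelled sex entered only 1 alternative fit, whose term carries these contradicted labels, and no fit used the observed pattern. Each group held a pair of Xist-high and a pair of Ddx3y-high libraries.

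Smoke-exposed and room-air lungs did not differ in the share of B cells beyond the spread between mice. B cells made up 19.96%, 26.6%, 42.9% and 15.1% of immune cells in CS 1 to 4 and 11.7%, 17.4%, 25.8% and 36.5% in RA 1 to 4. The means were 26.1% ± 12.1 (SD, n = 4) and 22.9% ± 10.8 (SD, n = 4), and the groups overlapped nearly in full (difference 3.28 percentage points, exact two-sided permutation test, p = 0.686; with 4 against 4 mice this test cannot go below 0.0286). The share was higher in CS in 3 of 4 lanes. Median transcripts per B cell were 3690 to 4681 in CS and 3421 to 4542 in RA (exact permutation test, p = 0.429).

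**Figure D1:**
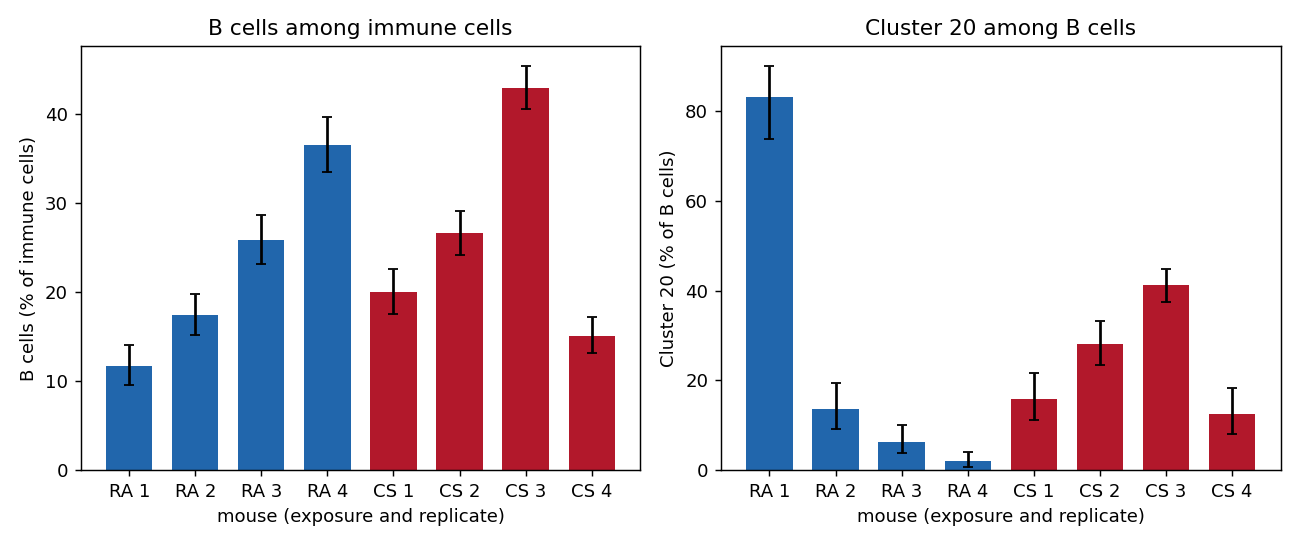
Left, B cells as a percentage of immune cells in each mouse; right, the percentage of B cells that the authors' clustering placed in cluster 20, with bars for RA mice in blue and CS mice in red and error bars for the exact 95% binomial interval (counting error only). B cell shares run from 11.7% to 42.9% with no separation of the groups, and RA 1 stands apart at 83.0% in cluster 20.

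The annotation joins 2 of the authors' clusters under the name B, cluster 7 with 1764 cells and cluster 20 with 570. The clusters were drawn from the expression of these same cells, so the contrast between them is a description and was not tested. The 2 cluster levels given for a gene are means over the pooled cells of all mice, so that CS 3, with 291 of the 570 cluster 20 cells, weighs most. Cluster 7 was led by Satb1, a chromatin organiser, at 12.4 transcripts per 10,000 against 0.430 in cluster 20, and by Bach2, a repressor of plasma cell differentiation, at 40.5 against 8.48. Genes known from follicular B cells lay on the same side. Fcer2a, the low-affinity IgE receptor CD23, was at 1.76 against 0.0338 and Cd55, a complement regulator, at 4.16 against 1.45, and 5 of the 7 genes of the follicular list were lower in cluster 20 in at least 7 of 8 mice. Cd38 was higher there in 8 of 8. Cxcr5 was at 2.61 in cluster 7 and 2.53 in cluster 20 over pooled cells, though higher in cluster 20 in 5 of 8 mice. Ighd, the IgD heavy chain, was at 7.15 in cluster 7 and 2.67 in cluster 20.

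Cluster 20 was led by Sox5, a transcription factor, at 16.6 against 1.26, and by S100a6, D10Wsu102e, Apoe, Rbm47 and Pstpip2. These were higher in cluster 20 in 8 of 8 mice except S100a6, which ranged from 0.955 to 18.9 in the cluster 20 cells of a mouse and in RA 1 was lower there, at 0.955 against 1.34. The cluster 20 cells of RA 1 held little of some leading genes. Pstpip2 was at 0.0989 there, against 0 in its 16 cluster 7 cells and 1.95 to 5.54 in cluster 20 of the other 7 mice. Rbm47 was at 0.934, against 1.54 to 5.80, while Apoe, at 6.95, lay among the other mice. The genes of the age-associated and memory list were higher in cluster 20 in 6 of 6 found in at least 10% of either cluster's cells, each in 5 to 8 of 8 mice. Among them Nt5e, the ectonucleotidase CD73, stood at 4.65 against 0.256, Fcrl5, an Fc receptor-like protein, at 3.84 against 0.163 and Cd80, a costimulatory ligand, at 1.59 against 0.0432. All 8 genes of the B-1 list were higher too, each in 7 or 8 mice, with Ahnak, a large scaffold protein, at 3.86 against 0.685 and Bhlhe41, a transcription factor that B-1a cells need, at 0.792 against 0.1001. Ighm was higher as well, at 46.0 against 26.1. Oxidative phosphorylation genes were higher in 17 of 17 and the antibody secretion route in 13 of 13, each in 5 to 8 of 8 mice, with median log2 differences of 0.37 and 0.29, while 16 of 20 immediate early and activation genes were lower. Of the 7294 genes found in at least 10% of either cluster's cells, 50.96% were higher in cluster 20, and their median was 0.0040. Cluster 20 cells held 6615 transcripts in the median against 3682 in cluster 7. RA 1 was the exception, with 3795 in its cluster 20 cells against 6269 to 9718 in those of the other 7 mice.

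**Figure D2:**
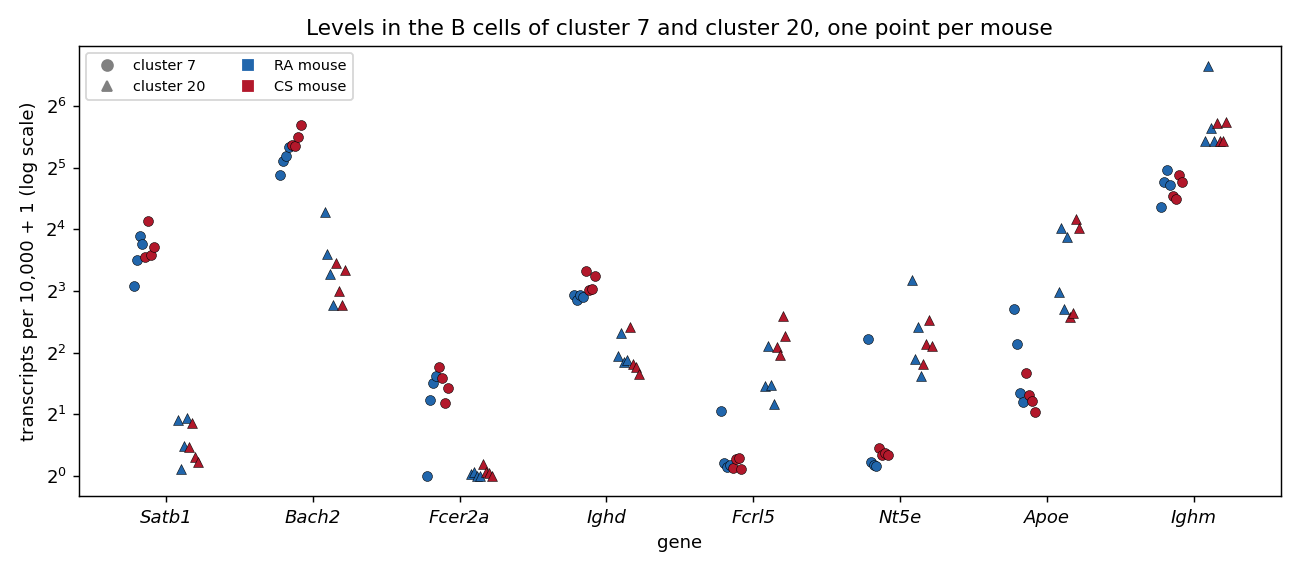
Transcripts per 10,000 plus 1 on a log2 axis for 8 genes, one point per mouse, with circles for cluster 7, triangles for cluster 20, blue for RA and red for CS. Satb1, Bach2, Fcer2a and Ighd lie higher in cluster 7 and Fcrl5, Nt5e, Apoe and Ighm in cluster 20; the cluster 7 points of RA 1 rest on 16 cells.

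The balance of the 2 clusters varied among mice more than between exposures. Cluster 20 took 15.9%, 28.1%, 41.2% and 12.6% of B cells in CS 1 to 4 and 83.0%, 13.7%, 6.37% and 2.01% in RA 1 to 4 (exact permutation test, p = 0.971). In RA 1, 78 of 94 B cells fell in cluster 20 (95% exact binomial interval 73.8% to 89.9%). Without RA 1 the CS mice averaged 17.1 percentage points more, which 4 against 3 mice did not separate (exact permutation test, p = 0.143). As a share of immune cells, cluster 20 reached 17.7% in CS 3 and 9.68% in RA 1, and lay between 0.735% and 7.47% in the other mice. Because RA 1 differs so much in this balance, differences were also computed within cluster 7 for the 5665 tested genes that could be fitted there, with RA 1 left out for its 16 cells, and within cluster 20 in the 6 mice with at least 20 such cells. Those 6 were the 4 CS mice and only 2 RA mice, RA 1 and RA 2, so cluster 20 differences rest on RA 1 in large part. Both of these RA mice were Xist-high, with Xist at 8.85 and 10.8 and Ddx3y at 0. The CS mice held a pair of Xist-high and a pair of Ddx3y-high libraries, so the cluster 20 differences were also unbalanced in sex pattern.

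IgM and IgD dominated the heavy chains. Ighm stood at 27.0, 27.4, 34.2 and 29.5 transcripts per 10,000 in CS 1 to 4 and at 38.4, 36.3, 31.3 and 25.8 in RA 1 to 4, and the groups overlapped. Ighd stood at 8.28, 5.79, 5.22 and 7.67 in CS and at 3.49, 5.93, 6.37 and 6.36 in RA. With each cell thinned to 2000 transcripts, which left out 163 CS and 107 RA cells, Ighd was found in 49.0% to 69.2% of B cells in CS mice and 35.6% to 65.6% in RA mice (exact permutation test, p = 0.629), against 0.376% of T cells. Unthinned, the share was 75.7% of B cells at a median of 4055 transcripts and 0.904% of T cells at 4755. Ighd was found in 67.1% of thinned cluster 7 cells and 34.1% of thinned cluster 20 cells.

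Class-switched cells were rare in both exposures. A cell was counted as switched when it held at least 2 transcripts of the IgG, IgA and IgE constant genes together and more of these than of Ighm and Ighd. By this rule 34 of 2334 B cells were switched, 4, 14, 9 and 1 in CS 1 to 4 and 2, 2, 2 and 0 in RA 1 to 4, against 3 of 1770 T cells. The shares were 0.546% to 4.14% in CS and 0% to 2.13% in RA (exact permutation test, p = 0.343), and 0 of 348 cells in RA 4 allows a share of up to 0.862%, taken as 3 cells of the total. That limit is for cells that meet the rule, and switched cells with fewer such transcripts read would be missed. Of the 34 cells, 29 lay in cluster 20, and CS 2 alone held 14 of them. Ighg2b was the most abundant IgG gene in CS 2, at 0.654 transcripts per 10,000, and was at 0.0184 to 0.219 in the other mice. Ighg1, Ighg2c, Ighg3 and Ighe each averaged at most 0.316 in any mouse.

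Cells with the high Jchain levels of antibody secretion were nearly absent among the cells labelled B. Secreting cells under other labels or among the multiplets were not searched for. At least 100 transcripts of Jchain, which joins IgA and IgM into polymers, were found in 4 B cells, 2 from CS 1 and 2 from CS 3. Those of CS 1 held 2746 and 4142 transcripts of Igha, the IgA heavy chain, and those of CS 3 held 657 and 1214 of Ighm. Igha therefore averaged 16.3 transcripts per 10,000 in CS 1, and 0.0327 without these 2 cells. In the other mice Igha averaged 0.0604 to 0.723, highest in RA 1, where 17.0% of B cells held a transcript of it.

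The lambda light chain constant genes Iglc1, Iglc2 and Iglc3 include near-identical copies between which reads can be split, and they were summed. At least 3 of their transcripts were found in 40.2% to 53.3% of B cells in CS mice and 45.3% to 49.1% in RA mice (exact permutation test, p = 0.514) and in 0 of 1770 T cells, which allows a share of up to 0.169%. With cells thinned to 2000 transcripts the shares were 23.1% to 33.0% and 23.3% to 32.7%. The counts per cell ran on without a gap from 0 upward, so these shares are of cells with such transcripts and not of a lambda class.

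Differences in gene expression between CS and RA B cells were tested with limma on log2(transcripts per 10,000 + 1) of each mouse's mean over its B cells. Among 6244 genes found in at least 10% of B cells of either exposure, 0 (0%) passed the Benjamini-Hochberg threshold of 0.05, and the smallest adjusted p was 0.166. At an unadjusted p under 0.05 there were 474 higher in CS (7.59%) and 353 lower (5.65%). The 4 CS values lay wholly above the 4 RA values for 280 genes (4.48%) and wholly below for 226 (3.62%). With 1 mouse left out, the shares at an unadjusted p under 0.05 were 5.33% to 8.12% higher and 3.48% to 6.69% lower. They were 9.41% and 8.19% within cluster 7 and 5.49% and 5.47% within cluster 20. A Wilcoxon test over single cells with Bonferroni correction, the approach of the study, called 504, but it counts the cells of a mouse as replicates. All values below are therefore differences that did not pass the correction, given with their standard error (SE) on the log2 scale, and folds of genes under 1 transcript per 10,000 are understated on it.

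The 10 genes with the smallest p divided into 6 higher and 4 lower. Esr1, the estrogen receptor alpha, was at 0.579, 0.447, 0.588 and 0.513 transcripts per 10,000 in CS 1 to 4 and at 0.273, 0.219, 0.180 and 0.180 in RA 1 to 4 (log2 difference 0.34, SE 0.05, limma adjusted p = 0.166). Dnase1l3, a nuclease that digests extracellular chromatin, was at 0.382, 0.564, 0.610 and 0.605 in CS and 0.112, 0.203, 0.122 and 0.238 in RA (0.40, SE 0.06, limma adjusted p = 0.166). Nr3c2, the mineralocorticoid receptor, was at 2.23, 2.81, 2.48 and 1.56 in CS and 0.948, 1.45, 0.753 and 0.578 in RA (0.76, SE 0.15, limma adjusted p = 0.264). In all of these no CS value reached down to the RA values, and CS was higher in 4 of 4 lanes.

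The calcium channel gene Cacna1e averaged 5.01 ± 1.45 in CS and 2.48 ± 0.407 in RA (SD, n = 4 each, log2 difference 0.77), and the polarity gene Pard3b 2.13 ± 0.715 and 0.841 ± 0.320 (0.76). Sftpa1, which encodes surfactant protein A and is not a B cell gene, averaged 0.580 ± 0.104 in CS and 0.272 ± 0.0609 in RA. Its log2 difference was 0.31 over all B cells, and 0.0050 in those without Cd3e, Cd3d, Lyz2, Sftpc and Cldn5. On the lower side, Ccr7, the receptor that leads lymphocytes into lymph nodes, was at 4.37, 4.86, 3.38 and 4.48 in CS and 7.70, 6.46, 6.23 and 7.02 in RA (log2 difference -0.58, SE 0.12, limma adjusted p = 0.264). Its difference was -0.39 within cluster 7 and -0.99 within cluster 20. Camk2b averaged 0.255 ± 0.0666 in CS and 0.687 ± 0.230 in RA, and Sra1 0.308 ± 0.0762 and 0.646 ± 0.126. The fourth was Cd74. In T cells Sra1 was at 0.368 to 0.405 in CS and 0.458 to 0.693 in RA, and Camk2b at 0.0518 to 0.208 and 0.212 to 0.387, the same order. Within cluster 7, the differences of Nr3c2 and Cacna1e were 0.40 and 0.31, and within cluster 20 they were 1.28 and 1.29. Esr1 was too rarely found in cluster 7 to be fitted there, and within cluster 20 its difference was 0.11, against 0.34 over all B cells.

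For 11 of the 12 MHC class II genes the difference lay below 0. The promoters of 3 of them are shown as examples of the list's shared word, the inverted CCAAT box (Y box) known from class II promoters, which NF-Y binds. Capitals mark matches to GATTGG on either strand; each window runs from 250 bases before to 50 bases after the RefSeq transcript start (GRCm38.p6), is written 5′ to 3′ along the gene and lies on chromosome 17.
H2-Aa (chr17:34287774-34288073, minus strand): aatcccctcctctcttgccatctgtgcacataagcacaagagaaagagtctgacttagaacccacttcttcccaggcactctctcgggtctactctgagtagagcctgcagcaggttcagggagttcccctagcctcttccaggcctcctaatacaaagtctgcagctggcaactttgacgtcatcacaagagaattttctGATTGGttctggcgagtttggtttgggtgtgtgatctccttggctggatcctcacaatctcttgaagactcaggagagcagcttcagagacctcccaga
H2-Eb1 (chr17:34305617-34305916, plus strand): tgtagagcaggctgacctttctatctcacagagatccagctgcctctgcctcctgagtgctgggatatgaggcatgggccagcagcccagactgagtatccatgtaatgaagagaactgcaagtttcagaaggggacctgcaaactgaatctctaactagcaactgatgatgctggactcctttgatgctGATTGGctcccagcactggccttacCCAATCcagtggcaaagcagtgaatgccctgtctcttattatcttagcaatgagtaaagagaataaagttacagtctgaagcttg
H2-DMb2 (chr17:34144999-34145298, plus strand): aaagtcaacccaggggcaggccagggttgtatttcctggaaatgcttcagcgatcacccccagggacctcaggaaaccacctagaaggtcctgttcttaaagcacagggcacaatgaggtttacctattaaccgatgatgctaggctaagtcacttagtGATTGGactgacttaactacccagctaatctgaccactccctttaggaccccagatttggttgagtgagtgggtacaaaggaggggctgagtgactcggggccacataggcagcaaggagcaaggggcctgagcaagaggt
The first match began 49, 60 and 91 bases before the start site in H2-Aa, H2-Eb1 and H2-DMb2, and H2-Eb1 had a second 35 bases before it, on the other strand. Of the 9 list genes with a promoter in the RefSeq set 8 held the word, Ctss being the exception, against 16.1% of all 32851 promoters of this length and 23.3% of the 4876 tested genes that had one. Of the 8 genes that held the word, H2-DMa, H2-DMb1, H2-Eb2, H2-Oa and H2-Ob overlapped between the groups, while Ctss, which lacked it, did not, so no link between the word and the levels is drawn. A match is a word in the sequence and was not tested as a site.

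Cd74 encodes the invariant chain that guides class II molecules to the compartment where they load peptide. It ranked second by abundance in the B cells of all 8 mice among the genes of the deposited matrix. That matrix lacks the kappa light chain constant gene Igkc. Cd74 stood at 107, 108, 115 and 94.4 transcripts per 10,000 in CS 1 to 4 and at 183, 157, 150 and 142 in RA 1 to 4. The groups did not overlap, and CS was lower in every lane (log2 difference -0.57, SE 0.10, limma adjusted p = 0.219). The difference was -0.52 (SE 0.11) within cluster 7 and -0.60 (SE 0.09) within cluster 20. Cd74 passed the threshold under 3 of the alternatives, as given with the limits at the end.

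Transcripts of the class II chains followed the same order, and the proteins were not measured. H2-Aa, the alpha chain of I-A, was at 26.6, 29.7, 30.02 and 24.1 in CS and 46.4, 36.9, 34.5 and 33.5 in RA (log2 difference -0.44, SE 0.13, limma adjusted p = 0.326). H2-Ab1, its beta chain, was at 18.9, 20.4, 20.3 and 17.3 in CS and 42.6, 27.7, 24.4 and 23.7 in RA (-0.56, SE 0.17, limma adjusted p = 0.326). H2-Eb1, the gene of the I-E beta chain, was at 20.3, 23.9, 25.8 and 19.8 in CS and 42.7, 30.9, 27.3 and 27.4 in RA (-0.48, SE 0.16, limma adjusted p = 0.332). RA 1 was the highest in each of them, and the other RA mice also lay above every CS mouse. H2-Aa, H2-DMa, H2-Oa, H2-Ob, Ciita and Ctss exceed the number of members the naming rule allows for a list and were added after their values were seen.

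H2-DMb2, a chain of the exchange factor that loads peptide, was at 2.898, 2.58, 3.02 and 1.85 in CS and 5.42, 3.80, 3.61 and 3.71 in RA (-0.52, SE 0.14, limma adjusted p = 0.301). Its partner H2-DMa was at 2.51 ± 0.359 in CS and 3.53 ± 0.931 in RA (SD, n = 4 each). Ciita, the master activator of class II transcription, was at 0.867, 0.872, 1.29 and 0.981 in CS and 1.22, 0.685, 0.848 and 1.27 in RA, with a log2 difference of 0.0038. H2-Oa and H2-Ob, which encode the B cell regulator of H2-DM, differed by -0.16 and -0.15.

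Of the 12 class II genes, all tested, 0 passed the correction, 6 were lower at an unadjusted p under 0.05 (background 5.65%), 6 lay wholly below the RA values (background 3.62%) and 0 were higher by either measure. Their median log2 difference was -0.27, against 0.01 over all genes tested. It was -0.22 within cluster 7, -0.39 within cluster 20 and -0.32 to -0.21 with 1 mouse left out, nearest to 0 without RA 1. The list's genes span 11.3 kb in the median, and short genes as a whole lay lower in CS, as given below; the part of gene span in the class II values was not tested.

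**Figure D3:**
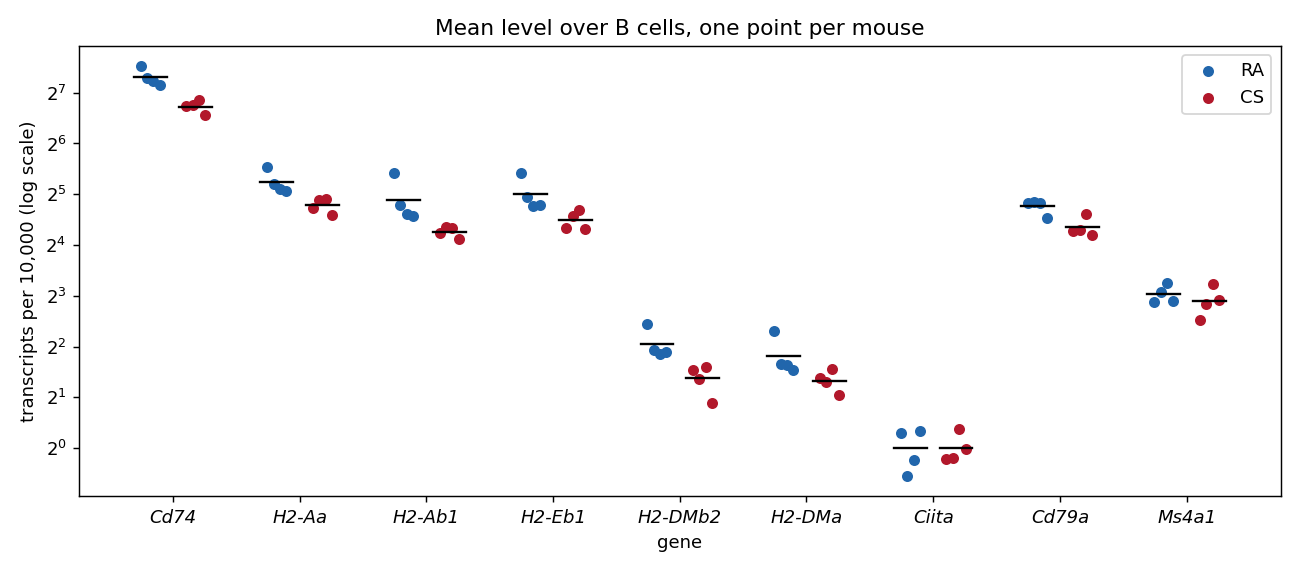
Mean transcripts per 10,000 over the B cells of each mouse on a log2 axis, with RA mice in blue, CS mice in red and bars for group means. Cd74, H2-Aa, H2-Ab1, H2-Eb1 and H2-DMb2 do not overlap between the groups, and Ciita and Ms4a1 do.

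MHC class I genes show peptides from inside the cell. H2-D1 was at 10.2, 10.2, 12.2 and 9.05 in CS and 20.5, 15.6, 13.5 and 16.2 in RA (log2 difference -0.60, SE 0.14, limma adjusted p = 0.264), and H2-K1 at 12.1 ± 1.76 in CS and 17.7 ± 4.90 in RA (SD, n = 4 each). Reads can be split among the near-identical class I genes. Over the 11 tested, 3 were lower at an unadjusted p under 0.05 (background 5.65%), 0 were higher, and the median was -0.23. Without RA 1 the median was -0.09, and the number lower was 6 without CS 3, 5 without RA 3 and 1 without CS 4. T cells showed the same order, with H2-D1 at 11.9 to 17.2 in CS and at 19.9 to 23.2 in RA. The class I genes span 5.40 kb in the median, and the part of gene span in their values was not tested.

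Of the B cell identity genes, Fcmr, Cd79a and Cd79b had the smallest p, and all of them lay lower in CS on average. Cd79a was at 19.4, 19.5, 24.3 and 18.3 in CS and 28.4, 29.0, 28.4 and 23.2 in RA, so that only CS 3 and RA 4 overlapped (log2 difference -0.40, SE 0.13, limma adjusted p = 0.329). Cd79b was at 10.2 ± 1.56 in CS and 13.4 ± 0.841 in RA, Fcmr, the receptor for IgM, at 4.04 ± 0.274 and 5.78 ± 0.524, and Cd72, an inhibitory coreceptor, at 1.46 ± 0.419 and 2.29 ± 0.815 (SD, n = 4 each). The groups did not overlap for Fcmr. Of the 16 genes 6 were lower at an unadjusted p under 0.05 (background 5.65%) and 0 higher, and 2 were lower without CS 2. Within cluster 20 there were 3 higher (background 5.49%) and 2 lower (background 5.47%). The median was 0.07, with 9 differences above 0, but it was -0.10 without RA 1 and -0.09 within cluster 7. Ms4a1 was at 5.76, 7.14, 9.40 and 7.56 in CS and 7.32, 8.41, 9.49 and 7.40 in RA, a difference of -0.12 that changed sign within cluster 20.

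Of the 14 antigen receptor signalling genes 12 had differences above 0, against 52.4% of all genes tested, and the median was 0.16. It was 0.12 to 0.21 with 1 mouse left out and 0.11 within cluster 7. Only 1 gene was past an unadjusted p of 0.05, a share near the background of 7.59%, and 2 lay wholly above the RA values (background 4.48%). Without RA 1 or within cluster 7 there were 0 higher and 1 lower, without CS 1, CS 4 or RA 4 there were 0 in either direction, and without CS 3, RA 2 or RA 3 or within cluster 20 there were 2 higher. That gene was Pik3cd, a catalytic subunit of PI3 kinase, at 2.62 ± 0.291 in CS and 1.97 ± 0.505 in RA. Prkcb, the protein kinase C that relays the receptor's signal, was at 12.4 ± 1.05 and 9.70 ± 2.51. Genes of this list span 70.9 kb in the median, against 29.6 kb over all genes tested. Of 7 antigen receptor inhibitors 0 passed an unadjusted p of 0.05, and their median was 0.03.

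Homing and positioning genes were divided. Klf2, a factor that keeps lymphocytes circulating, was at 3.49, 5.23, 4.21 and 3.29 in CS and 8.95, 4.21, 7.04 and 6.53 in RA (log2 difference -0.58, SE 0.19, limma adjusted p = 0.332), with RA 2 among the CS values. Gpr183, a receptor for oxysterols that guides B cells in follicles, was at 2.18 ± 0.312 in CS and 2.97 ± 0.367 in RA. Cxcr4, the receptor for CXCL12, was at 2.92, 2.23, 1.93 and 2.17 in CS and 1.33, 1.15, 2.38 and 1.99 in RA (0.31, SE 0.15, limma adjusted p = 0.393), and the groups overlapped. Cxcr5, the receptor that draws B cells into follicles, was at 2.36 ± 0.353 and 2.7004 ± 0.664. Ackr3, an atypical receptor for CXCL12, reached at most 0.0283 in any mouse, and the stress gene Nupr1 at most 0.196. Of 13 genes of the list 3 were lower (background 5.65%) and 0 higher at an unadjusted p under 0.05. Without CS 3 there were 2 higher and 4 lower, within cluster 7 there were 1 higher and 4 lower, and within cluster 20 there were 0 higher and 1 lower.

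Of the 20 immediate early and activation genes 4 were lower at an unadjusted p under 0.05 (background 5.65%) and 0 higher, and the median was -0.13, with 14 differences below 0. These values moved with single mice. Without RA 1 the median was -0.29 with 7 lower, and without RA 4 it was -0.05 with 1 lower. Without CS 4 it was -0.06 and without RA 3 -0.08, and 2 genes were lower without CS 1 and 2 without CS 4. The median was -0.27 with 8 lower within cluster 7 (background 8.19%), and 0.06 with 4 higher and 2 lower within cluster 20. Jund was at 9.94, 11.0, 8.41 and 6.08 in CS and 14.5, 11.4, 13.8 and 15.1 in RA, without overlap (log2 difference -0.60, SE 0.17, limma adjusted p = 0.316). Jun averaged 1.06 ± 0.318 and 1.89 ± 0.719, Cd86, a costimulatory ligand, 6.60 ± 1.74 and 8.57 ± 1.303, and Dusp2, a phosphatase induced by activation, 1.98 ± 0.333 and 2.71 ± 0.748. For Jun, Cd86 and Dusp2 the groups overlapped. The T cells of CS mice had Jund at 3.21 to 5.06 and those of RA mice at 6.05 to 7.47. The list's genes span 5.07 kb in the median, and the part of gene span in their values was not tested.

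Of the heat shock and chaperone list, 3 chaperones of the endoplasmic reticulum are among the 4 members with the largest differences. Calr was at 2.26, 3.03, 2.82 and 2.41 in CS and 5.34, 4.28, 3.99 and 3.57 in RA (log2 difference -0.54, SE 0.12, limma adjusted p = 0.264), and Pdia6 averaged 0.583 ± 0.0993 and 0.998 ± 0.159. Hspa5 averaged 3.27 ± 0.611 and 4.22 ± 0.423. None of these 3 overlapped between the groups, while the fourth member, Hspe1, did, with a log2 difference of -0.31. The order of these 3 was not particular to B cells. In T cells Calr was at 2.33 to 2.86 in CS and 3.07 to 4.11 in RA. There Pdia6 was at 0.349 to 0.5387 and 0.5388 to 1.27, and Hspa5 at 3.25 to 4.18 and 4.60 to 6.07. In the heat shock and chaperone list 4 of 18 were lower (background 5.65%) and 0 higher at an unadjusted p under 0.05. The number lower was 8 without CS 2, 2 without CS 4 and 7 within cluster 7 (background 8.19%), and within cluster 20 there were 1 higher and 2 lower. Xbp1, which drives secretion in plasma cells, was at 0.288 ± 0.0693 in CS and 0.420 ± 0.0275 in RA. T cells showed this order too, with Xbp1 at 0.253 to 0.418 in CS and 0.551 to 0.820 in RA. Of the 4 tested genes of the plasma cell list, 1, Xbp1, was lower (background 5.65%) and 0 higher at an unadjusted p under 0.05. In this list 2 differences lay above 0 and 2 below, the median was -0.0023, and 0 were lower within cluster 7.

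Genes of B-1 and marginal zone cells were higher in part. S100a6, a calcium-binding protein, was at 3.26, 5.25, 2.21 and 0.426 in CS and 1.02, 0.672, 0.893 and 0.517 in RA (log2 difference 0.91, SE 0.34, limma adjusted p = 0.351), and CS 4 lay below every RA mouse. Its difference was 0.16 within cluster 7 and 1.45 within cluster 20. Ahnak averaged 1.83 ± 0.438 and 1.07 ± 0.758. Dtx1, a regulator of Notch signalling, averaged 2.86 ± 0.467 in CS and 2.07 ± 0.338 in RA. Of 8 B-1 genes 2 were higher and of 4 tested marginal zone genes 2 (background 7.59%), with 0 lower in either list. The B-1 count was 5 without RA 1, 0 without CS 2 and 1 without CS 1, RA 2, RA 3 or RA 4. The marginal zone count was 0 within cluster 7 and without CS 2, and 1 without CS 3, RA 2, RA 3 or RA 4. The 6 age-associated and memory genes gave 0 in either direction and a median of -0.09, but without RA 1, whose B cells lay mostly in cluster 20, 3 were higher and the median was 0.17.

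Of 9 survival receptor and BCL2 family genes 2 were higher (Bcl2 and Traf3, background 7.59%) and 1 lower (Tnfrsf13c) at an unadjusted p under 0.05, and without CS 1, CS 4 or RA 3 there were 0 in either direction. Bcl2, which blocks apoptosis, averaged 2.31 ± 0.543 in CS and 1.61 ± 0.494 in RA, Traf3, an adaptor that restrains NF-kB signalling, 3.71 ± 0.442 and 2.88 ± 0.634, and Tnfrsf13c, the BAFF receptor, 1.51 ± 0.335 and 2.03 ± 0.183. Ltb, the lymphotoxin beta chain that B cells use in building lymphoid tissue, averaged 2.57 ± 0.581 and 3.70 ± 0.437 (log2 difference -0.41, SE 0.13, limma adjusted p = 0.330). Gclc, a glutathione synthesis gene of the NRF2 response, was at 1.21, 1.40, 1.29 and 1.46 in CS and 0.388, 0.855, 1.19 and 1.18 in RA, without overlap though CS 1 and RA 3 lay close. T cells had the same order, with Gclc at 1.32 to 2.15 in CS and 0.610 to 1.02 in RA. It was the only one of 7 tested genes of the aryl hydrocarbon receptor and NRF2 list past an unadjusted p of 0.05, and all 7 differences lay above 0, against 52.4% of all genes tested. Only 4 lay above 0 without CS 3 or RA 4, and 5 without RA 3 or within cluster 20. Without CS 2, CS 4 or RA 1, and within cluster 7, 0 of the list passed. Of 12 tested genes of the antibody secretion route 1 was lower and 0 higher, and of 10 clock and cold response genes 1 was higher and 1 lower, at an unadjusted p under 0.05, shares near the backgrounds of 7.59% higher and 5.65% lower. With 1 mouse left out the first list gave 0 to 1 higher and 0 to 2 lower, and the second 0 to 1 higher and 1 lower. The lower clock list gene, Tsc22d3, a glucocorticoid target, averaged 3.54 ± 0.484 and 4.75 ± 0.502. The 6 interferon response genes, the 17 oxidative phosphorylation genes and the 8 p53 and growth arrest genes gave 0 past an unadjusted p of 0.05, with medians of 0.03, -0.13 and -0.02. Of the oxidative phosphorylation genes 16 had differences below 0, where 52.4% of all genes tested lay above 0, and 7 were lower at an unadjusted p under 0.05 within cluster 7 (background 8.19%), 6 without CS 3, 4 without RA 4 and 1 without CS 2. These genes span 6.75 kb in the median, and short genes as a whole lay lower in CS, as given below. The part of gene span in their values was not tested. Of the p53 and growth arrest genes 1 was lower without CS 3 or RA 4 and 2 within cluster 20.

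**Figure D4:**
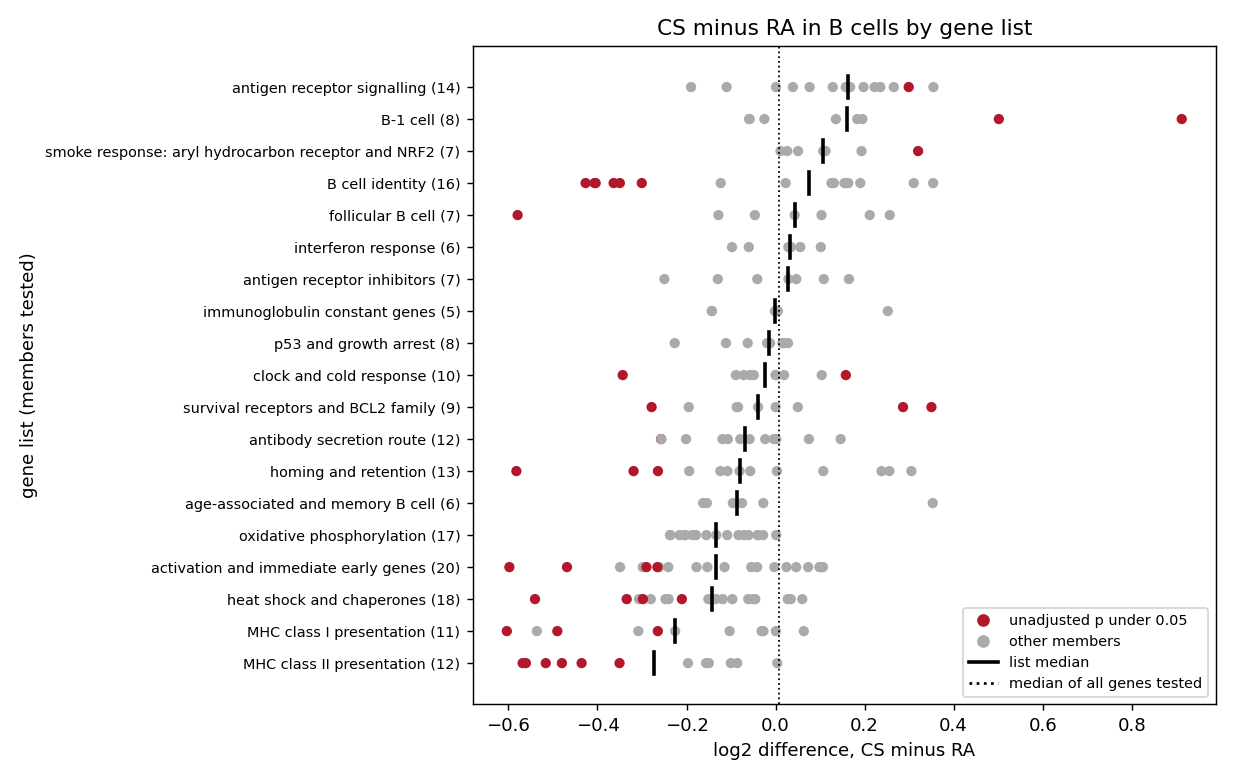
Each point is the log2 difference (CS minus RA) of 1 gene in B cells, in rows for the lists with at least 5 tested members; red points have an unadjusted p under 0.05, black bars are list medians and the dotted line is the median of all genes tested. The medians run from -0.27 for MHC class II to 0.16 for antigen receptor signalling, and no gene passed the adjusted threshold.

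The RNA of the B cells also differed between exposures in the share that came from long genes. Counts include unspliced RNA, and genes over 100 kb gave 23.3%, 23.03%, 22.5% and 25.4% of B cell transcripts in CS 1 to 4 and 17.2%, 20.2%, 21.3% and 21.6% in RA 1 to 4 (exact permutation test, p = 0.0286, the smallest it can give; higher in CS in 4 of 4 lanes). Without CS 4 the difference was 2.83 percentage points and the exact permutation p 0.0857. T cells gave 21.1% to 23.3% in CS and 18.8% to 20.01% in RA, and the cells labelled NK and cytotoxic T 20.6% to 21.9% and 17.7% to 19.8%, so the order was not particular to B cells. Within cluster 7 the shares were 24.0% to 26.3% in CS and 20.8% to 21.7% in RA 2 to 4, and 20.2% in the 16 cells of RA 1.

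By class of span, the median difference climbed with the span. The tested genes were divided by span into 5 classes of 1245. In the shortest class, up to 9.49 kb, the median log2 difference was -0.09 and 177 genes were lower at an unadjusted p under 0.05 against 23 higher. In the longest class, from 82.1 kb, the median was 0.11, with 211 higher and 8 lower. The 3 classes between had medians of -0.04, 0.01 and 0.06. The B cell identity, heat shock and homing lists span 11.6, 11.3 and 12.6 kb in the median. The part of span in their values was not tested. Esr1, Nr3c2, Cacna1e and Pard3b, all higher in CS, span 394, 346, 494 and 1003 kb. Single genes went against this order, such as Camk2b, which spans 96.7 kb and was lower, and Sftpa1, which spans 4.67 kb and was higher. Sftpa1 is not a B cell gene, however, and in B cells without markers of other cells its difference was 0.0050. Ribosomal protein genes gave 9.42% to 12.01% of transcripts in CS and 11.5% to 13.04% in RA (exact permutation test, p = 0.0571). The labels do not say whether CS and RA lungs were processed on the same days, and the part of processing day in this difference was not tested. The part of this difference in RNA make-up in any single gene was not tested.

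**Figure D5:**
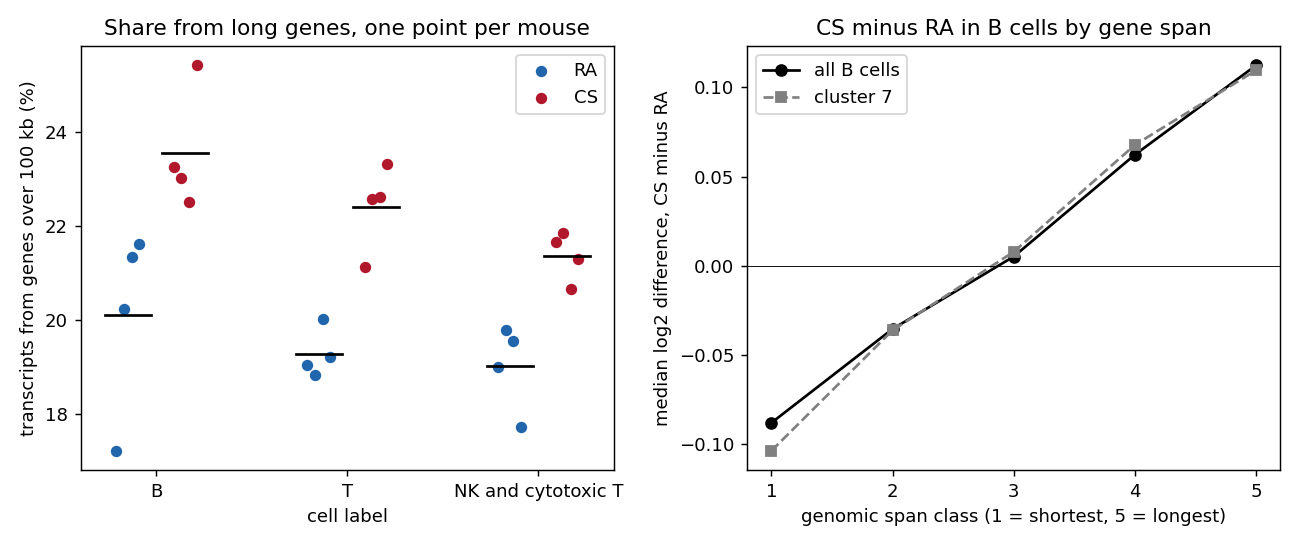
Left, percentage of transcripts from genes spanning over 100 kb in the B, T, and NK and cytotoxic T cells of each mouse, with RA in blue, CS in red and bars for means. Right, median log2 difference (CS minus RA) in B cells for 5 equal classes of the tested genes by span, over all B cells (circles) and cluster 7 (squares); the medians climb from -0.09 to 0.11 over all B cells.

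B cells and T cells were then compared for their response to CS. For each of 5546 genes the CS minus RA difference in B cells was set against that in T cells of the same mice. With limma 0 genes (0%) passed the adjusted threshold and 212 (3.82%) had an unadjusted p under 0.05. The 5 smallest p were those of Taf4b, Rras2, Cebpb, Hpf1 and Abtb2, of which Taf4b, a transcription factor subunit, had the lowest adjusted p, 0.392. For H2-D1, H2-K1 and Jund the B minus T differences were -0.03, -0.04 and -0.06. Most class II genes are too low in T cells to enter this comparison.

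RNA of other cells was measured in the B cells. The 7 alveolar epithelial markers together gave 2.55 to 4.38 transcripts per 10,000 in CS mice and 0.762 to 1.94 in RA mice, without overlap (exact permutation test, p = 0.0286), and Sftpc, surfactant protein C, was on average the highest of them. All 7 were above 0 in some mouse, and 8 B cells held at least 50 Sftpc transcripts, 7 of them from CS mice. Without these 8 cells Sftpc averaged 0.0659, 0.305, 0.226 and 0.00708 in CS 1 to 4. In RA 1 to 4 it then averaged 0.412, 0.265, 0.467 and 0.0978. Over all B cells Sftpc averaged 1.93 ± 0.642 in CS and 0.403 ± 0.316 in RA (SD, n = 4 each), without overlap. The 8 cells were chosen by their Sftpc count, so the values without them are a description and not a test. The sum of the 7 markers without these cells was not computed. The 10 macrophage and monocyte markers gave 1.07 to 2.91 and 0.416 to 1.13 (exact permutation test, p = 0.0571), led by Lyz2, lysozyme, at 0.962 ± 0.468 and 0.360 ± 0.186 (SD, n = 4 each). The 10 T cell markers gave 0.106 to 0.322 and 0.0707 to 0.149, the 8 NK markers 0.0299 to 0.201 and 0.0567 to 0.261, and the 6 neutrophil markers 0.133 to 0.240 and 0.0605 to 0.381. The 4 airway markers ranged from 2.12 to 41.6, led by Scgb1a1, of which 18 B cells held at least 50 transcripts each. The 7 endothelial markers gave 1.67 to 4.83 and 1.26 to 3.56, the 7 fibroblast markers 0.363 to 0.586 and 0.220 to 1.11, the 5 red cell markers 0.859 to 1.61 and 0.467 to 1.16, and the 6 plasmacytoid dendritic cell markers 0.0915 to 0.170 and 0.0853 to 0.135. Macrophages and dendritic cells carry class II transcripts, and the part of such RNA in the class II values was not tested. In the 1742 B cells that held a B cell marker and none of Cd3e, Cd3d, Lyz2, Sftpc and Cldn5, 0 genes passed the adjusted threshold. The log2 difference of Cd74 in these cells was -0.56 and that of Sftpa1 0.0050.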

How the data were processed

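Single-cell RNA of lung cells from 4 CS and 4 RA mice was analysed from the deposited matrix, barcodes, gene names and cell table. The authors aligned reads with STAR 2.7.3a to GRCm38 (p6) and GENCODE genes plus the transgenes, counted unspliced together with spliced transcripts, filtered cells, corrected for free RNA with SoupX and annotated clusters found with Seurat. The deposited values are estimated counts: 1.28% are whole (within 1e-06), and they sum to the total in the authors' cell table for all 41106 cells. The deposited mitochondrial percent was computed by the authors as each cell's share of mitochondrial transcripts. Because the values are not raw counts, no count model was fitted.

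B cells were those the annotation names B. The 1025 cells labelled multiplets and 7 labelled cell cycle were left out, no doublet caller was run, and exposure came from the sample labels. Immune cells are the 13 CD45-positive labels. Each cell was scaled to 10,000, and the mean over a mouse's cells was the unit, except that the levels of clusters 7 and 20 set against each other are means over pooled cells. Genes found in at least 10% of B cells of either exposure were tested with limma 3.58.1 (lmFit, eBayes with a trend) in R 4.3.3 on log2(mean + 1), with Benjamini-Hochberg adjustment at 0.05; the scripts were tested on simulated data. The B against T comparison used each mouse's B minus T value, and mice needed at least 20 cells. For single values an exact two-sided permutation test over the 8 mice was run. The p-values measure the spread between mice, and binomial intervals cover counting error only. Thinning drew 2000 transcripts per cell without replacement. Python 3.11.15, numpy 2.4.6, pandas 2.3.3, scipy 1.17.1 and matplotlib 3.10.9 were used. Spans and identifiers are from GENCODE M21 on GRCm38, which lacked 520 of 33027 names.

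Genes named were the B cell markers and immunoglobulin constant genes, the 10 smallest p (as fewer than 10 genes were called), up to 4 tested members of each list with the largest differences, Cxcr4, Cxcr5, Ackr3, Nupr1, the sex check and the 5 smallest p of B against T. Genes named beyond this after their values were seen were further MHC class II genes and those in the descriptions of clusters, promoters, variable genes and RNA of other cells. The members and lists were chosen with earlier results of these data known. Of 359 listed genes 4 had no row and were not analysed here. The planned light chain ratio needed 1 of them, Igkc, so cells with at least 3 lambda transcripts were counted instead. Alternatives were the pseudocount, gene filter, lane or labelled sex as a term, scaling, cell choice, depth, a Wilcoxon test over cells and leaving out each mouse. The analyses of clusters 7 and 20, of gene span and of the lists with 1 mouse left out were chosen after seeing the data.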

Additional observations from a re-analysis of the deposited data

Results flagged for a closer look

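A single mouse stood apart from its group, by the gap to its nearest neighbour over the group's range, in 6 of 108 groups looked at; chance flags about 1 in 20 groups, which gives 5.4. Of the 6, 5 were RA 1. Cluster 20 held 83.0% of its B cells, against 2.01% to 13.7% in the other RA mice, and Ighd was found in 35.6% of its thinned B cells, against 61.6% to 65.6%. Its mean Ighd was 3.49 transcripts per 10,000, against 5.93 to 6.37, its H2-DMb2 5.42, against 3.61 to 3.80, and its Cd72 3.501, against 1.70 to 2.01. RA 4 had Cd79a at 23.2, against 28.4 to 29.0 in the other RA mice.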

How the results depend on the processing

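No gene passed the adjusted threshold in B cells under 12 of the 15 other limma settings, nor without any 1 mouse. The exceptions were 3 genes with summed counts (Nr3c2, Dnase1l3 and Cd74), 3 with clusters weighted equally (Nr3c2, Gm23935 and Cd74) and 1 with cells thinned to 2000 transcripts (Cd74). The Wilcoxon test over cells called 504. The comparison with T cells kept 0 calls under each of its alternatives. Of 995 values of 44 named genes, 981 kept direction and side of the threshold, 6 passed it and 8 lost direction. Within cluster 20 the differences were 0.085 for Ms4a1, -0.22 for Ighd, 0.38 for Cxcr5, 0.54 for Jun and -0.16 for Lyz2; Cxcr5 was at 0.0027 with clusters weighted equally. With quantile normalization Ighm was at 0.030 and Cd74 at 0, since it ranked second in all 8 mice. The causes were not tested.

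The B cell share differed by -1.15 percentage points among B, T and NK cells, and by -2.31 to 7.83 with 1 mouse left out (negative without CS 3 or RA 1). With 1 mouse left out, the Ighd share differed by -2.76 (without RA 1) to 8.42, the cluster 20 share by -9.90 to 17.1 (positive without CS 1, CS 4 or RA 1), the long gene share by 2.49 to 3.96 (exact permutation p = 0.0857 without CS 4) and the share with 3 lambda transcripts by -4.87 (without CS 3, exact permutation p = 0.0286) to -0.51. With at least 5 lambda transcripts it differed by 0.20. The labels carry no replicate numbers; a fit with lane as a block, which pairs the CS and RA mouse of each lane, called 0 genes. RA 1, with 94 B cells, limits the depth.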

Other observations

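Variable genes of the immunoglobulins were read in few cells. Kappa variable genes were found in 13.2% to 24.0% of the cluster 7 cells and 26.9% to 42.4% of the cluster 20 cells of a mouse, and heavy chain variable genes in 0% to 7.47% and 0% to 12.1%. Reads can be split among near-identical variable genes, and the cells of a mouse share a library, so the values that follow are a description. In cluster 20 of RA 1, the mouse with 83.0% of its B cells there, 21 of 78 cells held a kappa variable gene and 13 of these held Igkv1-117. In its 5 cluster 20 cells with a heavy chain variable gene, that gene was Ighv1-26 each time, and over all its B cells 2 held both genes. These genes were chosen for their frequency in RA 1. Over all B cells Igkv1-117 was found in 14 of the 94 cells of RA 1, and Ighv1-26 in 5. The other mice held 183 to 707 B cells each, with Igkv1-117 in 1 to 12 of them and Ighv1-26 in 0 to 2. In cluster 20 of CS 3, 119 of 291 cells held a kappa variable gene, and Igkv2-109 was the most frequent, in 42 of these (35.3%). In the other mice with at least 20 cluster 20 cells, the most frequent kappa gene was found in 2 to 7 cells.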
